A study of Mus musculus with 43 samples.

Results

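The Egr and Nr4a families of immediate early genes were followed in RNA sequencing of mouse brain: Egr1, Egr2, Egr3 and Egr4, and Nr4a1, Nr4a2 and Nr4a3. These 7 genes were taken by symbol from the 55804 gene entries of each of the study's tables of TPM (abundance per transcript length, scaled to a fixed total per library), and all 7 passed the minimum mean TPM of 1 in both tables. They were chosen by the fold changes and calls of several of them between the groups of the AppNLGF table in earlier results, so their AppNLGF values are given as a description, and the counts of calls there, from the fit over all genes, support nothing. The AppNLGF table held 13 libraries of AppNL-G-F/NL-G-F mice given CDDO-2P-Im, 11 of AppNL-G-F/NL-G-F mice given vehicle and 4 of wild type mice given vehicle, all 6 months old. The APP/TAU table held 5 libraries of APPV717I::TAUP301L mice given CDDO-2P-Im, 5 of APPV717I::TAUP301L mice given vehicle and 5 of wild type mice given vehicle, all 11 months old. CDDO-2P-Im, a synthetic triterpenoid that induces the transcription factor NRF2, was dosed orally 3 times per week, at 30 µmol/kg each time, over 4 weeks in the AppNLGF and 2 weeks in the APP/TAU mice. The AppNLGF alleles are knock-in mutations of the endogenous mouse App gene, while the APP/TAU model holds transgenes for human APP with V717I and human TAU with P301L. No promoter of those transgenes is named in the sources used here.

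Immediate early genes are transcribed within minutes of a stimulus, without new protein synthesis, when kinases act on transcription factors already bound to their promoters, chiefly CREB at cAMP response elements (CRE) and SRF with its partners at serum response elements. Egr proteins are zinc finger transcription factors that bind GC-rich sites, and Egr1, Egr2 and Egr3 are held in check by the corepressors Nab1 and Nab2. Nr4a proteins are orphan nuclear receptors that act without a known natural hormone, bind DNA as monomers or dimers, and in the case of Nr4a1 and Nr4a2 also pair with retinoid X receptors. In the brain both families are induced by neuronal activity, and Egr1 and the Nr4a genes are used as marks of recently active neurons and have been tied to memory formation in rodents.

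The promoter letters are shown because CREB is the activator these genes are best known to share. The 250 bases before each RefSeq transcription start of GRCm38.p6 were searched for the CRE half-site TGACG on both strands, where its reverse complement reads CGTCA, and 5 of the 7 genes had an entry in the promoter table. Matches are in capitals below, with the CArG box of the serum response element also in capitals in Egr2, and each sequence runs 5′ to 3′ on the gene's own strand up to the last base before the start. For Nr4a3 only the stretch outside annotated exons is shown.
Nr4a1: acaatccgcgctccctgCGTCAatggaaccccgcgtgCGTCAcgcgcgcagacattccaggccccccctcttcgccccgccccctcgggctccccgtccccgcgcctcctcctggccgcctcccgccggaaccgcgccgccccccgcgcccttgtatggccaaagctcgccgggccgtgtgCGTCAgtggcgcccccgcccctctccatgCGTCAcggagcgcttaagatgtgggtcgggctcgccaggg
Nr4a2: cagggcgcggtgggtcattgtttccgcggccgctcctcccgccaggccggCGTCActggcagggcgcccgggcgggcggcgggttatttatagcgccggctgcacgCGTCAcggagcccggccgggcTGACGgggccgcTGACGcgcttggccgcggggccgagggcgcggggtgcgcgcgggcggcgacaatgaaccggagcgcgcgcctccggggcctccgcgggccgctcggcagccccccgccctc
Nr4a3: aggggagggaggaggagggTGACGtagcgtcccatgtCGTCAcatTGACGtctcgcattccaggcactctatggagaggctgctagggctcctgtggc
Egr4: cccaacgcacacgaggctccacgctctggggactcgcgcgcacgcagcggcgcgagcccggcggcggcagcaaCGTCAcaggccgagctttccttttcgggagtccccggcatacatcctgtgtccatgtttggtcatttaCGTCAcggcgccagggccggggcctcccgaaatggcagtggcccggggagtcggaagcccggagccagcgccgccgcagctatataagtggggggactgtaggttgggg
Egr2: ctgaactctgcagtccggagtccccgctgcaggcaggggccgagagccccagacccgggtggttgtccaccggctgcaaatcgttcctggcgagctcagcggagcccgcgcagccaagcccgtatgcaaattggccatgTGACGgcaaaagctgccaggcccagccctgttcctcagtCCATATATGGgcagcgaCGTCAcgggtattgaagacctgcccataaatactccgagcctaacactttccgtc
These stretches are chr15:101266596-101266845 (plus strand) for Nr4a1, chr2:57124004-57124253 (minus strand) for Nr4a2 and chr4:48045055-48045152 (plus strand) for Nr4a3. They are chr6:85513590-85513839 (minus strand) for Egr4 and chr10:67537619-67537868 (plus strand) for Egr2.

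Each of the 3 Nr4a promoters held 4 half-sites. In Nr4a1 the nearest began at -40 and the farthest at -233 from the start, and in Nr4a2 they lay between -200 and -107. In Nr4a3 3 of them, from -231 to -201, stand in the stretch shown, and the fourth, at -147, lies in the annotated first exon and is not printed. Egr4 held 2 half-sites, at -177 and -109. Of 32817 mouse promoter windows of the same length, 17.7% held at least 1 half-site, 3.90% at least 2, 0.689% at least 3 and 0.137% at least 4. Egr2 has 5 RefSeq starts, and the window shown was picked after the search because it holds matches: 2 half-sites, at -111 and -55, on either side of a CArG box at -72. A CArG box stood in 1.47% of all windows. The windows of 2 nearby Egr2 starts hold the same matches, that of another start holds a CArG box and no half-site, and that of the most upstream start holds neither but has 1 match to the Egr core GTGGGCG, which 7.02% of windows held. None of the searched windows of these genes held the full CRE TGACGTCA (1.55% of all windows) or AGGTCA, the core of the NBRE that Nr4a monomers bind (14.0%). A match to the TATA element TATAAA stood only in the Nr4a2 window, at -164 (12.4% of all windows). A match is a string of letters and does not show that a factor binds there, and the letters were not tested against the expression values.

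**Figure D1:**
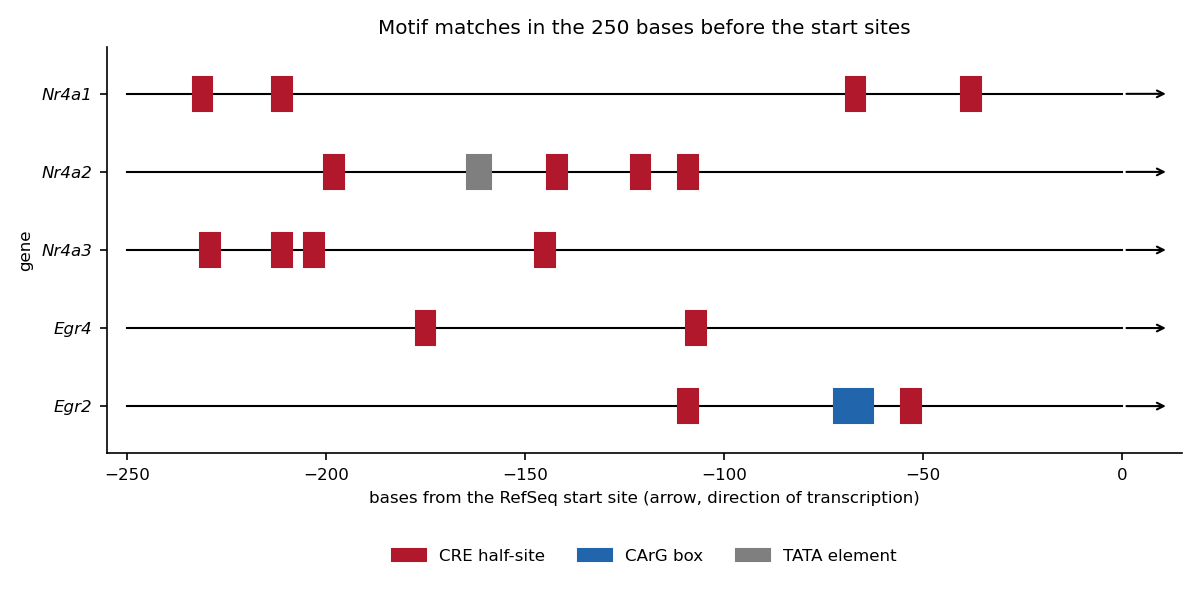
Matches to the CRE half-site, the CArG box and TATAAA in the promoter windows of Nr4a1, Nr4a2, Nr4a3, Egr4 and Egr2, by distance in bases from the RefSeq transcription start at 0; each mark is 1 match and each line 1 window. The 3 Nr4a windows hold 4 CRE half-sites each and the Egr4 window 2.

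The genes lie on 7 different chromosomes in the GENCODE M21 annotation of GRCm38. Egr1 is at chr18:34859823-34864984 and Egr2 at chr10:67535475-67542188, both on the plus strand. Egr3 is at chr14:70077203-70082614 on the plus strand and Egr4 at chr6:85511121-85513589 on the minus strand. Nr4a1 is at chr15:101254269-101274795 and Nr4a3 at chr4:48045153-48086447, both on the plus strand, and Nr4a2 is at chr2:57106830-57124003 on the minus strand.

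The labelled tissue is brain, with no region named, and all 4 general neuron markers (Rbfox3, Snap25, Syt1, Tubb3) were detected, with a summed level of 1261 to 1891 TPM per library. The tables differed in regional markers: 7 striatal markers summed to 307 to 560 TPM per AppNLGF-table library and 61.0 to 99.95 TPM per APP/TAU-table library, and 6 cerebellar markers to 23.5 to 43.3 TPM and 367 to 587 TPM. TPM keep no sequencing depth, so the reads behind each value are unknown. An RNA without a symbol took 28.3 to 40.0% of the TPM of each AppNLGF-table library and 15.5 to 34.5% of each APP/TAU-table library, so each value was also taken after median-ratio scaling, which divides a library by its median ratio to the average library over all tested genes. In the AppNLGF table, libraries numbered 1 to 5 held more of that RNA (37.5 ± 3.24% with CDDO-2P-Im and 36.3 ± 1.29% with vehicle; SD, n = 5 each) than libraries numbered 6 and above (30.8 ± 3.02%, n = 8, and 30.5 ± 1.66%, n = 6). The labels do not say what the numbers stand for, and the wild type libraries of that table are numbered 1 to 4. Sex is not labelled: Xist, the RNA of the inactive X chromosome, was at 73.5 to 98.3 TPM in 7 of 13 CDDO-2P-Im and 5 of 11 vehicle AppNLGF libraries and at most 0.156 TPM in every other library, wild type and APP/TAU included. The labels number libraries without naming animals, so any p-value measures the spread between libraries.

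Egr1 had the highest and Egr2 the lowest mean of the 7 genes in all 6 groups, on the TPM scale, which is per transcript length. In the AppNLGF table these are levels of the gene entries, which by an inference given below leave out transcripts listed on their own. Egr3-202, such a transcript, averaged 21.6 TPM with CDDO-2P-Im, 21.0 TPM with vehicle and 20.5 TPM in wild type. The order is therefore that of the entries and may not be that of whole genes, and the same may hold in the APP/TAU table. In AppNLGF CDDO-2P-Im and in 6-month wild type libraries the order was Egr1, Nr4a1, Egr3, Egr4, Nr4a2, Nr4a3, Egr2, while in AppNLGF vehicle libraries Egr3 stood above Nr4a1, and Nr4a2 above Egr4. The ranges of neighbours in that order overlapped for every pair in AppNLGF CDDO-2P-Im libraries, and for every pair but Egr1 and Egr3 in AppNLGF vehicle libraries. In 6-month wild type libraries the ranges were separate for Egr1 and Nr4a1, Egr4 and Nr4a2, and Nr4a2 and Nr4a3. In the APP/TAU table Nr4a2 stood above Egr4 in each group. Neighbours with separate ranges were Egr1 and Nr4a1, Nr4a1 and Nr4a2, Nr4a2 and Egr4, Egr4 and Nr4a3, and Egr3 and Egr2 in APP/TAU CDDO-2P-Im libraries. They were Nr4a1 and Nr4a2, and Egr3 and Egr2, in APP/TAU vehicle libraries. In 11-month wild type libraries they were Egr1 and Nr4a1, Nr4a1 and Nr4a2, and Nr4a3 and Egr2.

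In the AppNLGF table Nr4a1, Egr2 and Egr4 were lower with vehicle than in wild type, and higher with CDDO-2P-Im than with vehicle; Egr3, Nr4a2 and Nr4a3 differed by less than 1 SE between CDDO-2P-Im and vehicle. Nr4a1, known in T cells and neurons as a receptor switched on by calcium and kinase signals, was at 44.7 ± 15.3 TPM with CDDO-2P-Im (SD, n = 13; lowest 22.1, median 46.6, highest 79.5). It was at 21.1 ± 4.21 TPM with vehicle (n = 11; 15.4, 21.3 and 30.7) and at 47.6, 65.6, 70.9 and 37.8 TPM in the 4 wild type libraries. All 11 vehicle libraries lay under all 4 wild type libraries, and 10 of 13 CDDO-2P-Im libraries lay above every vehicle library. The fold change, a difference of log2(TPM + 1), was 0.99 ± 0.16 for CDDO-2P-Im against vehicle (SE), -1.33 ± 0.22 for vehicle against wild type and -0.34 ± 0.22 for CDDO-2P-Im against wild type. These are bulk samples, in which fewer cells of a type and less RNA per cell cannot be told apart.

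Egr2, which drives myelination in Schwann cells and is also induced in neurons, was at 4.18 ± 2.11 TPM with CDDO-2P-Im (n = 13; lowest 1.05, median 4.06, highest 8.67). It was at 1.59 ± 0.681 TPM with vehicle (n = 11; 0.444, 1.71 and 2.41) and at 4.50, 6.33, 6.69 and 3.87 TPM in wild type. The vehicle and wild type ranges were again separate, and 9 of 13 CDDO-2P-Im libraries exceeded every vehicle library. The folds were 0.93 ± 0.20 for CDDO-2P-Im against vehicle, -1.32 ± 0.29 for vehicle against wild type and -0.39 ± 0.28 for CDDO-2P-Im against wild type. Egr4, a further zinc finger member of the family, was at 20.4 ± 4.94 TPM with CDDO-2P-Im (n = 13; 11.3, 20.0 and 28.5), 15.1 ± 3.25 TPM with vehicle (n = 11; 8.59, 15.3 and 18.7) and 21.7, 25.4, 33.0 and 23.8 TPM in wild type. Its vehicle range also lay wholly under the wild type range, and 9 of 13 CDDO-2P-Im libraries lay above every vehicle library, but the fold for CDDO-2P-Im was smaller, 0.40 ± 0.13, beside -0.76 ± 0.18 for vehicle against wild type.

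**Figure D2:**
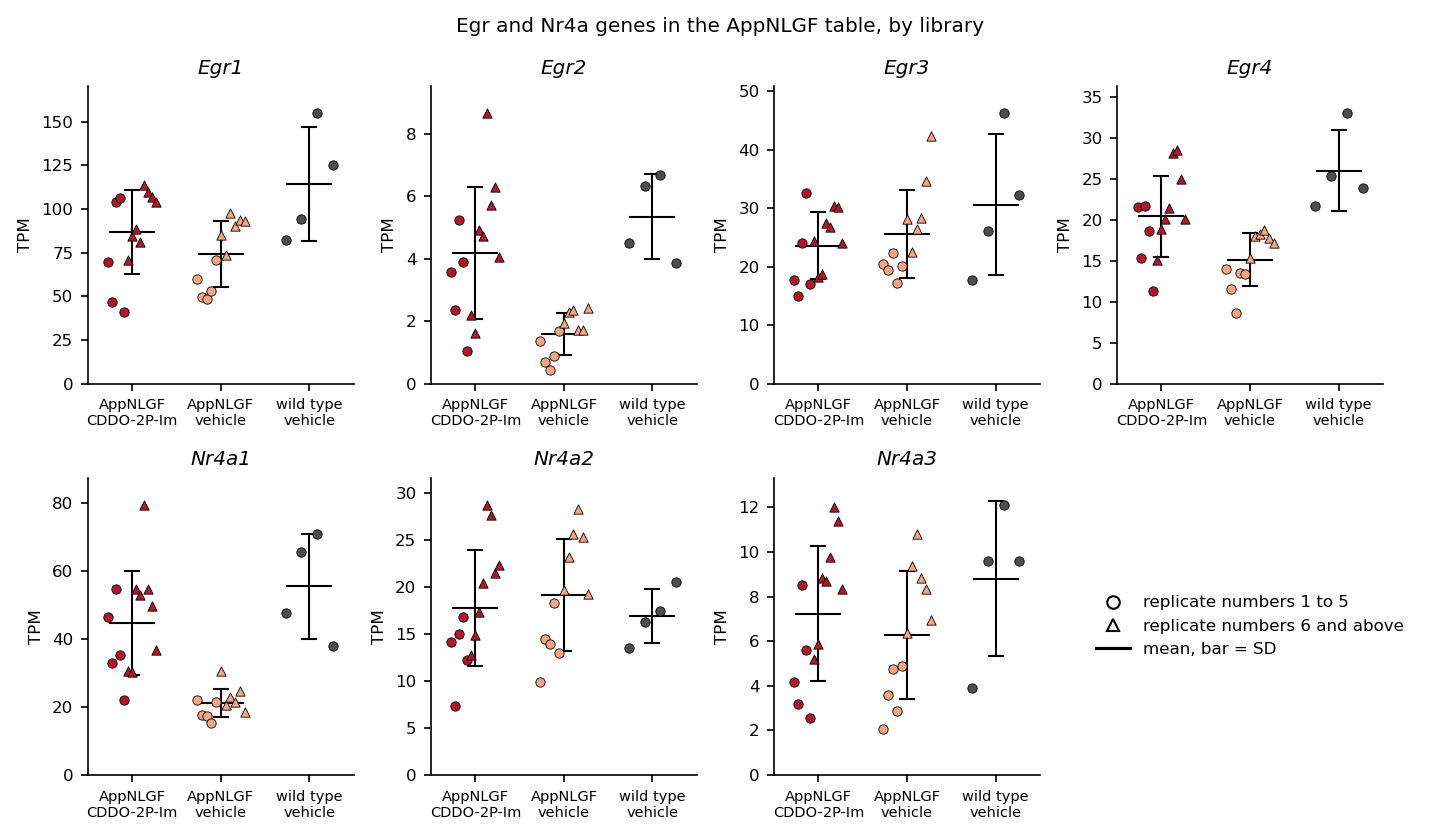
TPM of the 7 genes in each library of the AppNLGF table, by group, with CDDO-2P-Im at the left, vehicle in the middle and wild type at the right; points are libraries, long lines group means and bars SD. For Nr4a1, Egr2 and Egr4 every vehicle point lies under every wild type point, and 9 to 10 of 13 CDDO-2P-Im points lie above the highest vehicle point.

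Egr1, the family member most used as an activity marker, stood between these and the rest. It was at 86.7 ± 24.0 TPM with CDDO-2P-Im (n = 13; lowest 41.2, median 88.7, highest 114), 74.0 ± 18.9 TPM with vehicle (n = 11; 48.4, 73.7 and 97.5) and 82.3, 94.1, 155 and 125 TPM in wild type, with folds of 0.21 ± 0.17 for CDDO-2P-Im against vehicle and -0.62 ± 0.24 for vehicle against wild type. All 3 ranges overlapped. Egr3, which is needed for muscle spindle development and is also induced by synaptic activity, averaged 23.6 ± 5.78 TPM with CDDO-2P-Im, 25.6 ± 7.50 TPM with vehicle and 30.6 ± 12.1 TPM in wild type. Nr4a2, required for midbrain dopamine neurons, averaged 17.8 ± 6.16, 19.2 ± 5.95 and 16.9 ± 2.90 TPM in the same order, so wild type was not the highest group. Nr4a3 averaged 7.24 ± 3.04, 6.26 ± 2.87 and 8.81 ± 3.49 TPM. The folds of Egr3, Nr4a2 and Nr4a3 for CDDO-2P-Im against vehicle were -0.11 ± 0.15, -0.12 ± 0.18 and 0.19 ± 0.24, and those for vehicle against wild type -0.21 ± 0.22, 0.13 ± 0.25 and -0.46 ± 0.34. Within each family the size of the difference therefore varied: over the Nr4a genes the fold for vehicle against wild type ran from -1.33 to 0.13, and over the Egr genes from -1.32 to -0.21.

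At an adjusted p below 0.05 in limma over all 16776 genes, 1 of the 7 genes, Nr4a1, was called for CDDO-2P-Im against vehicle, where 0.0536% of all genes were called. For vehicle against wild type 2 were called, Nr4a1 and Egr2 (0.28% of all genes), and 3 had groups that did not overlap in the lower direction (0.262% of all genes). For CDDO-2P-Im against wild type limma called 0 of the 7, where 0.262% of all genes were called and 1296 genes had an unadjusted p under 0.05. With the replicate block that count was 4, where 19.2% of all genes were called, and with a term for library numbers 1 to 5 it was 4 (30.7%). With the block and median-ratio scaling it was 0. Within numbers 1 to 5, the numbers that hold the wild type libraries, it was 1 in deposited TPM (Egr4; 32.2%) and 0 after scaling. The number term gave 4 for vehicle against wild type (1.2%). With median-ratio scaling the counts were 2 (Nr4a1 and Egr2; 0.286%), 3 (Nr4a1, Egr2 and Egr4; 0.691%) and 0 (0.715%; 1947 genes at an unadjusted p under 0.05). Since these comparisons led to the choice of the genes, nothing is read from these counts. The median fold of the 7 genes was 0.21 for CDDO-2P-Im against vehicle, -0.62 for vehicle against wild type and -0.34 for CDDO-2P-Im against wild type, beside -0.04, -0.03 and -0.06 over all genes tested. Scaling moved the fold of each gene by under 0.1.

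The levels of these genes also moved with the library numbers, partly with a shift shared by genes in general. In vehicle libraries Nr4a3 was at 3.64 ± 1.20 TPM in numbers 1 to 5 and 8.45 ± 1.62 TPM in numbers 6 and above, and Nr4a2 at 13.9 ± 3.04 and 23.6 ± 3.57 TPM (SD, n = 5 and 6). In deposited TPM the ranges of the 2 sets of vehicle libraries were separate for each of these genes but Nr4a1, at 18.7 ± 2.84 and 23.1 ± 4.27 TPM. The share of all genes with separate ranges was not taken. The median ratio used for scaling was at most 0.979 in vehicle numbers 1 to 5 and at least 1.043 in numbers 6 and above. Genes in general were therefore lower in vehicle numbers 1 to 5 in deposited TPM. After median-ratio scaling the ranges were separate for Nr4a3 alone. Within numbers 1 to 5 the folds for CDDO-2P-Im against vehicle were 0.94 ± 0.22 for Nr4a1, 1.01 ± 0.27 for Egr2 and 0.49 ± 0.17 for Egr4. Within numbers 6 and above they were 0.99 ± 0.19, 0.81 ± 0.24 and 0.29 ± 0.12. Against wild type, the vehicle libraries numbered 1 to 5 alone gave -1.49 ± 0.23 for Nr4a1, -1.67 ± 0.28 for Egr2, -1.04 ± 0.18 for Egr4, -0.98 ± 0.27 for Egr1 and -1.03 ± 0.32 for Nr4a3. The last of these was -0.46 over all vehicle libraries, and that of Nr4a2 was -0.27 ± 0.20 within numbers 1 to 5 and 0.13 over all libraries. With median-ratio scaling the folds within numbers 1 to 5 were -1.36 for Nr4a1, -1.55 for Egr2, -0.91 for Egr4, -0.85 for Egr1, -0.92 for Nr4a3 and -0.15 for Nr4a2.

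Leaving out the libraries with Xist kept all 4 wild type libraries, 6 CDDO-2P-Im and 6 vehicle libraries. In these Nr4a1 was at 53.5 ± 15.2 TPM with CDDO-2P-Im and 21.6 ± 2.40 TPM with vehicle (n = 6 each), and the folds were 1.23 ± 0.18 for CDDO-2P-Im against vehicle and -1.29 ± 0.20 for vehicle against wild type. Among libraries with Xist, Nr4a1 was at 37.1 ± 11.5 TPM with CDDO-2P-Im (n = 7) and 20.6 ± 6.04 TPM with vehicle (n = 5), a fold of 0.80 ± 0.21. The folds of Egr2 for CDDO-2P-Im against vehicle were 1.12 ± 0.22 without and 0.80 ± 0.32 with Xist, and those of Egr4 were 0.42 ± 0.15 and 0.43 ± 0.18. Whether the folds differ between libraries with and without Xist was not tested.

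Markers of blood and choroid plexus also differed between libraries of this table. The 5 blood markers (4 hemoglobin genes and Alas2, of which 1 averaged under 1 TPM) summed to 6.39 to 134 TPM with CDDO-2P-Im, 16.6 to 129 TPM with vehicle and 84.6 to 246 TPM in wild type. The 3 choroid plexus markers, each averaging at least 1 TPM over all libraries of the table, summed to 7.69 to 608 TPM, 4.64 to 677 TPM and 477 to 718 TPM. The 4 astrocyte markers, all detected, summed to 166 to 337 TPM with CDDO-2P-Im, 233 to 333 TPM with vehicle and 176 to 205 TPM in wild type, with every vehicle library above every wild type library. The 6 markers of microglia and macrophages, all detected, had median sums of 144 TPM with CDDO-2P-Im, 145 TPM with vehicle and 96.6 TPM in wild type. The 4 neuron markers summed to 1283 to 1813, 1361 to 1739 and 1606 to 1761 TPM. The part of these in the values of the Egr and Nr4a genes was not tested.

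In the APP/TAU table all 7 genes were lower with CDDO-2P-Im than with vehicle, and no gene passed the adjusted threshold. Nr4a1 was at 36.2, 28.1, 36.5, 37.2 and 40.5 TPM with CDDO-2P-Im, against 57.4, 68.4, 51.5, 54.0 and 45.0 TPM with vehicle. It was at 46.5, 34.8, 35.9, 45.3 and 50.8 TPM in wild type. Every CDDO-2P-Im library lay under every vehicle library, and the wild type libraries overlapped both groups. The fold for CDDO-2P-Im against vehicle was -0.61 ± 0.13 (limma, p = 0.000231 before and 0.167 after adjustment over 17592 genes; lower in 5 of 5 libraries).

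Egr1 was at 50.3, 45.2, 47.4, 55.9 and 50.1 TPM with CDDO-2P-Im, against 71.2, 91.0, 79.3, 87.2 and 56.3 TPM with vehicle. In wild type it was at 75.1, 51.1, 63.3, 68.2 and 63.9 TPM. Its CDDO-2P-Im libraries, within 45.2 to 55.9 TPM, all lay just under or well under the lowest vehicle library, with a fold of -0.60 ± 0.12 (limma adjusted p = 0.167). Egr4 was at 11.9, 10.1, 11.4, 12.1 and 13.0 TPM with CDDO-2P-Im, against 19.4, 22.5, 19.5, 17.4 and 13.5 TPM with vehicle and 18.8, 10.8, 13.2, 15.5 and 17.2 TPM in wild type. Its CDDO-2P-Im and vehicle groups did not overlap either, with a fold of -0.60 ± 0.14 (limma adjusted p = 0.167). These 3 of the 7 genes had separate ranges, where 3.62% of all genes had separate ranges in that direction.

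Egr2 had the largest fold of the 7, -0.69 ± 0.14 (limma adjusted p = 0.167). It was at 2.55, 1.94, 2.14, 2.85 and 3.31 TPM with CDDO-2P-Im, against 4.51, 5.79, 5.68, 4.69 and 3.20 TPM with vehicle and 4.26, 3.53, 3.26, 4.13 and 3.39 TPM in wild type. Vehicle library 5, at 3.20 TPM, lay below the highest CDDO-2P-Im library, and in deposited TPM it was the lowest vehicle library for each of the 7 genes, while vehicle library 2 was the highest for each. After scaling library 5 was the lowest for all but Nr4a1 and Nr4a3, and library 3 was the highest for Egr1, Egr2, Egr4 and Nr4a2. Nr4a3 averaged 8.48 ± 1.16 TPM with CDDO-2P-Im, 12.5 ± 2.75 TPM with vehicle and 9.07 ± 2.57 TPM in wild type (SD, n = 5 each). Nr4a2 averaged 16.3 ± 0.672, 22.5 ± 3.67 and 19.8 ± 3.56 TPM, and Egr3 8.18 ± 1.31, 12.4 ± 3.85 and 10.5 ± 3.33 TPM. Their folds for CDDO-2P-Im against vehicle were -0.50 ± 0.18, -0.42 ± 0.12 and -0.50 ± 0.22, with limma adjusted p of 0.167, 0.167 and 0.175.

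**Figure D3:**
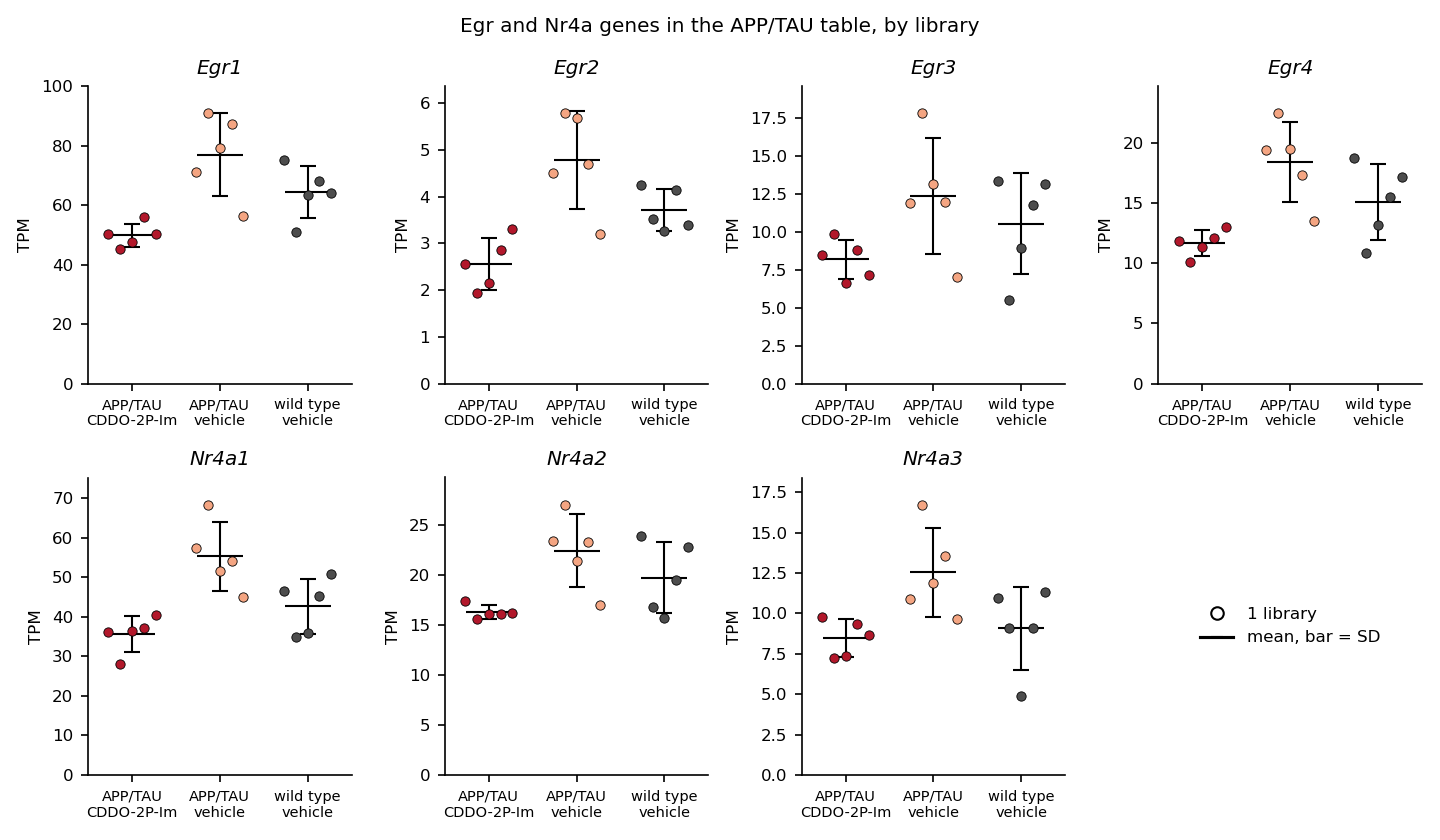
TPM of the 7 genes in each library of the APP/TAU table, by group, with CDDO-2P-Im at the left, vehicle in the middle and wild type at the right; points are libraries, long lines group means and bars SD. All CDDO-2P-Im points of Egr1, Egr4 and Nr4a1 lie under all vehicle points, and the wild type points overlap the vehicle points for every gene.

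Limma called 0 of the 7 genes for CDDO-2P-Im against vehicle in the APP/TAU table, where 0% of all genes were called and 4719 genes had an unadjusted p under 0.05. The median fold of the 7 genes was -0.60, beside -0.19 over all genes tested, a shift that scaling removed: with median-ratio scaling the medians were -0.38 and 0.00222. The scaled folds ran from -0.51 ± 0.13 for Egr2 to -0.21 ± 0.10 for Nr4a2, with limma adjusted p from 0.343 to 0.662, and Egr1, at -0.38 ± 0.09, was the only one whose groups stayed separate (0.898% of all genes). With that scaling limma called 0 of the 7 (0.0114% of all genes; 1556 genes at an unadjusted p under 0.05). The most abundant RNA took 27.9 to 31.2% of the TPM with CDDO-2P-Im, 15.5 to 29.1% with vehicle and 24.9 to 34.5% in wild type.

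Against wild type, vehicle libraries had folds above 0 for all 7 genes in deposited TPM, from 0.18 ± 0.12 for Nr4a2 to 0.45 ± 0.18 for Nr4a3, with limma adjusted p from 0.142 to 0.502. Their median of 0.28 stood beside 0.18 over all genes. Limma called 0 of the 7 (0.0227% of all genes; 4186 genes at an unadjusted p under 0.05), and after scaling the folds ran from -0.02 for Nr4a2 to 0.26 for Nr4a3. CDDO-2P-Im against wild type gave folds from -0.41 ± 0.14 for Egr2 to -0.05 ± 0.18 for Nr4a3 (limma adjusted p = 1 for each), and 0 of the 7 were called (0.0227% of all genes; 380 genes at an unadjusted p under 0.05). Scaling left those folds nearly unmoved, from -0.41 for Egr2 to -0.04 for Nr4a3, and Egr1 then had all 5 CDDO-2P-Im libraries under all wild type libraries, where 0.898% of all genes did, with a fold of -0.34 ± 0.09 (limma adjusted p = 0.363). The comparisons of this table share their groups of libraries, and earlier results of this table were known too when the genes were chosen.

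Marker sums differed between the groups of this table as well. The 5 blood markers summed to 20.1 to 247 TPM with CDDO-2P-Im, 29.7 to 473 TPM with vehicle and 22.0 to 64.9 TPM in wild type. The 5 markers of cortical and hippocampal excitatory neurons, all detected, had median sums of 532, 771 and 592 TPM, and the 4 neuron markers 1384, 1690 and 1435 TPM. The part of these in the values was not tested.

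For CDDO-2P-Im against vehicle, the folds of Nr4a1, Egr1, Egr2, Egr4 and Nr4a3 were above 0 in the AppNLGF and below 0 in the APP/TAU table, and those of Egr3 and Nr4a2 were below 0 in both. The median over all genes, given above, was also below 0 in both tables in deposited TPM, and the share of all genes with opposite signs was not taken. The pair was 0.21 ± 0.17 and -0.60 ± 0.12 for Egr1, 0.40 ± 0.13 and -0.60 ± 0.14 for Egr4, and 0.19 ± 0.24 and -0.50 ± 0.18 for Nr4a3. For Nr4a1 the pair was 0.99 ± 0.16 and -0.61 ± 0.13 (1.03 and -0.39 after scaling), and for Egr2 0.93 ± 0.20 and -0.69 ± 0.14 (0.96 and -0.51). The difference was not tested, since the AppNLGF values had entered the choice of genes. Genotype, age, weeks of dosing, the regional markers and the presence of libraries with Xist differ together between the tables and cannot be told apart.

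**Figure D4:**
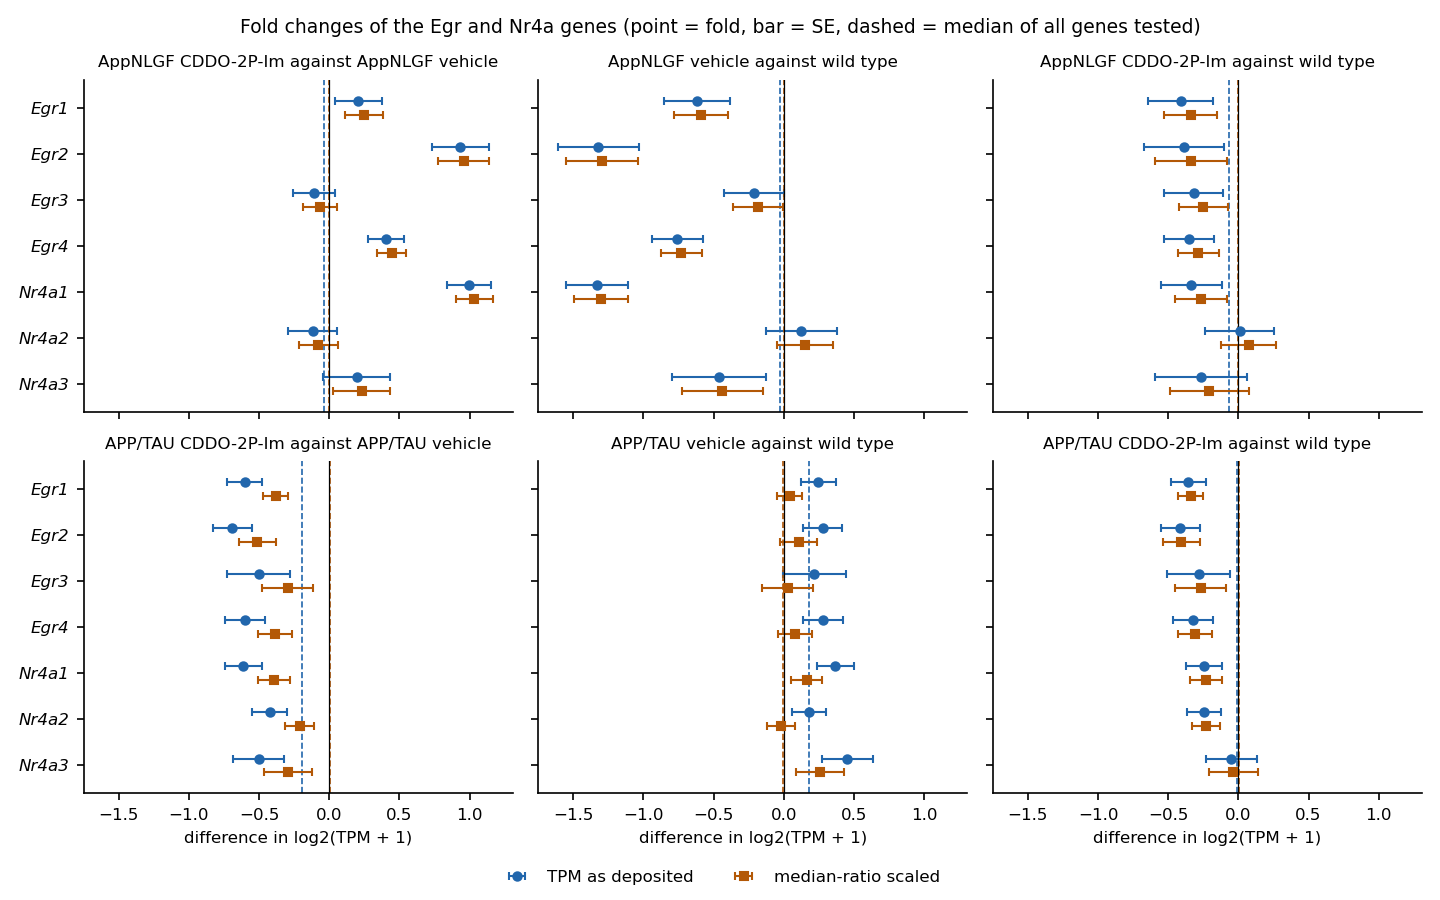
Fold changes of the 7 genes in the 6 comparisons, as differences of log2(TPM + 1); circles are TPM as deposited, squares median-ratio scaled, bars SE, and dashed lines the median of all genes tested. In the AppNLGF table Nr4a1 and Egr2 lie at 0.99 and 0.93 for CDDO-2P-Im against vehicle and at -1.33 and -1.32 for vehicle against wild type, while in the APP/TAU table all 7 lie below 0 for CDDO-2P-Im against vehicle.

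The genes also varied together among libraries of the same group, a pattern that did not enter their choice. Median-ratio scaled log2 values were taken as deviations from their group mean, and all 21 pairs of genes were correlated in 4 sets of libraries, 84 tests in all, with permutation p from 100000 resamples within groups and Benjamini-Hochberg adjustment over the 84. In the 28 AppNLGF-table libraries all 21 correlations were positive, with a median Pearson r of 0.56 and a range of 0.14 to 0.78, and 14 had an adjusted p below 0.05. In the 15 APP/TAU-table libraries all 21 were positive too, with a median of 0.61 and a range of 0.23 to 0.85. Of these, 11 had an adjusted p below 0.05. The shares of all gene pairs with a positive r or such a p were not taken. These counts therefore do not show that the genes vary together more than other genes do. Over all AppNLGF-table libraries the resamples also mixed low and high library numbers, between which levels differed. The counts within each set of numbers, given below, were smaller, over fewer libraries.

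Egr2 and Egr4 had the highest Pearson r in the AppNLGF table, 0.78 over 28 libraries (permutation p = 1e-05, the smallest possible, and 0.00042 adjusted). Their Spearman's rho was 0.71 (adjusted permutation p = 0.00154), and the highest rho was 0.75, for Egr1 and Egr3. Libraries farthest from the median were taken, here and below, by the first-named gene alone. Without the 2 farthest, the r of Egr2 and Egr4 was 0.81. Within libraries numbered 1 to 5 it was 0.85 (n = 14, adjusted permutation p = 0.00583) and within numbers 6 and above 0.60 (n = 14, adjusted permutation p = 0.145). Egr2 and Nr4a1 had the largest AppNLGF-table folds of the Egr and Nr4a genes, for CDDO-2P-Im against vehicle and for vehicle against wild type. This pair had r = 0.77 and rho = 0.71 (adjusted permutation p = 0.00042 and 0.00154), and r = 0.70 without the 2 farthest libraries. Within the 2 sets of numbers r was 0.87 and 0.71 (adjusted permutation p = 0.00287 and 0.0366). The same pair had r = 0.61 and rho = 0.55 in the APP/TAU table (n = 15, adjusted permutation p = 0.0498 and 0.0758).

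Nr4a2 and Nr4a3 varied together too: r was 0.73 and rho 0.73 in the AppNLGF table (adjusted permutation p = 0.00042 and 0.00154) and r was 0.78 and rho 0.79 in the APP/TAU table (adjusted permutation p = 0.0181 and 0.0213). Without the 2 farthest libraries r was 0.65 and 0.72. Within AppNLGF-table libraries numbered 1 to 5 r fell short of the threshold at 0.44 (adjusted permutation p = 0.209), and within numbers 6 and above it was 0.78 (adjusted permutation p = 0.0132). Nr4a1 and Nr4a2, members of the same family, had r = 0.21 in the AppNLGF table (adjusted permutation p = 0.362) and 0.78 in the APP/TAU table (adjusted permutation p = 0.00287), a difference that was not tested. Egr4 and Nr4a1 had the closest relation of the APP/TAU table, with r = 0.85 and rho = 0.84 (adjusted permutation p = 0.00287 and 0.00512; r = 0.84 without the 2 farthest libraries). The weakest pairs both held Egr3: Egr3 and Nr4a1 at 0.14 in the AppNLGF table and Egr2 and Egr3 at 0.23 in the APP/TAU table (adjusted permutation p = 0.543 and 0.482).

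Over the pairs as a whole, the median r was 0.45 within AppNLGF-table libraries numbered 1 to 5 and 0.49 within numbers 6 and above, with 20 and 19 of 21 pairs above 0 and 7 and 6 at an adjusted p below 0.05. Egr3 and Nr4a3, for one, had r = 0.52 over all 28 libraries and -0.07 within numbers 6 and above, and Nr4a1 and Nr4a2 had r = -0.11 within numbers 1 to 5. As a description, the median r was 0.62 over the 12 libraries with Xist and 0.61 over the 16 without it. The r of Nr4a2 and Nr4a3 was 0.40 with Xist and 0.84 without it. That of Egr2 and Nr4a1 was 0.73 and 0.74. Differences by Xist were not tested. In deposited TPM, where all genes of a library also share its most abundant RNA, the medians were 0.74 for the AppNLGF and 0.73 for the APP/TAU table.

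**Figure D5:**
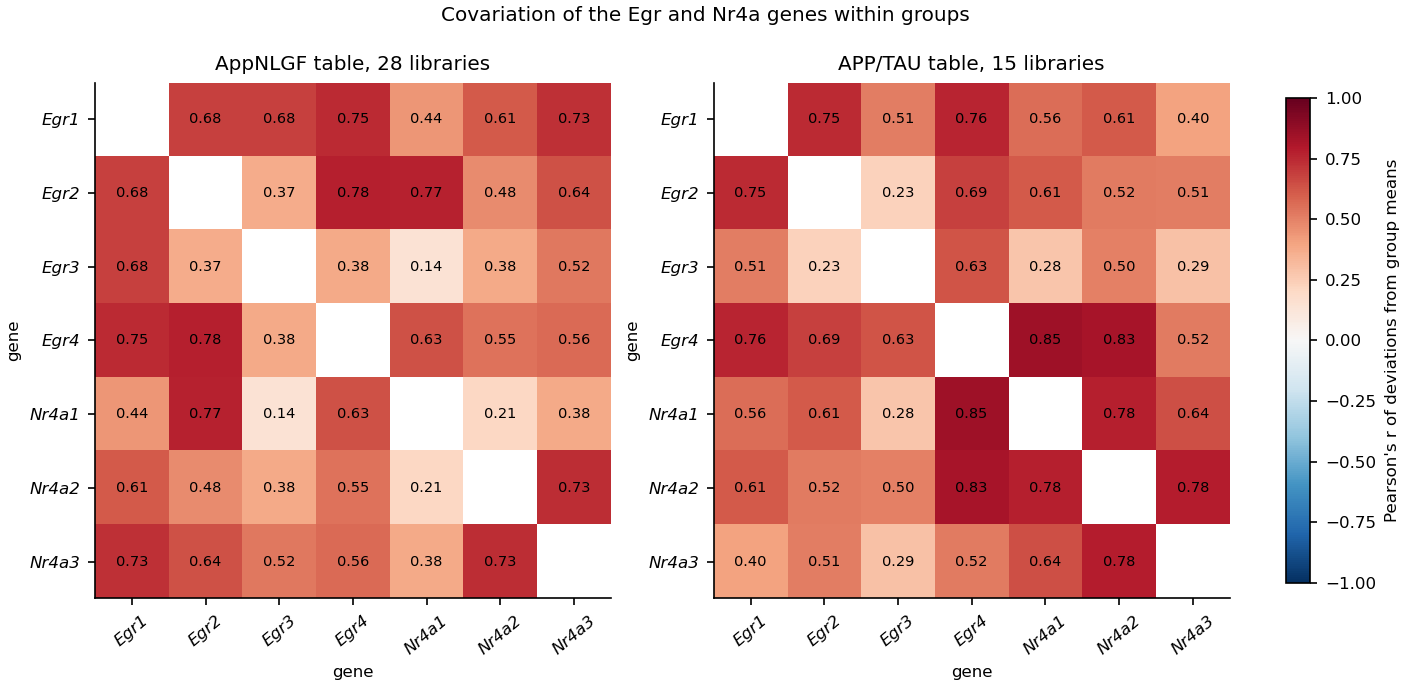
Pearson r between the 7 genes over deviations from group means (median-ratio scaled log2 values), in the 28 AppNLGF-table and the 15 APP/TAU-table libraries; each cell is 1 pair. All 21 pairs are above 0 in both tables, from 0.14 to 0.78 and from 0.23 to 0.85, and the pairs with Egr3 include the palest cells.

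The tested genes whose deviations followed each member most closely were ranked by the same Pearson r, as a description over libraries that share their scaling. Genes without a symbol or with a clone-type name were left out, so 12563 genes were ranked in the AppNLGF and 12994 in the APP/TAU table. In the AppNLGF table these were Dusp1 (0.86), Junb (0.85) and Fos (0.83) for Nr4a1, and Klf10 (0.81), Fos (0.78) and Psma3 (0.76) for Egr2. For Egr4 they were Nab2 (0.79), Fosb (0.77) and Plk2 (0.75), and for Egr1 Midn (0.88), Bhlhe40 (0.85) and Fosl2 (0.85). For Egr3 they were Homer1 (0.80), R3hdm2 (0.80) and Pcsk1 (0.77), for Nr4a2 Kcnc4 (0.86), Kit (0.85) and Nol4l (0.83), and for Nr4a3 Fosl2 (0.93), Ccnd2 (0.84) and Sh3rf1 (0.83). Over the 15 APP/TAU-table libraries they were Tcf12 (0.93), Apold1 (0.87) and Alkbh1 (0.86) for Nr4a1, and Arc (0.94), Apold1 (0.91) and Esr1 (0.89) for Egr4. Nr4a2 was followed by the clock genes Per1 (0.93) and Per2 (0.91) and by Cnnm4 (0.90), and Egr1 by Bhlhe40 (0.86), Scn2a (0.85) and Eif2b1 (0.84). The closest to Egr2, Egr3 and Nr4a3 were Dgat2 (0.84), Enox1 (0.90) and Atad2 (0.92). Of the genes ranked, Bhlhe40 alone was among the 3 closest to the same member in both tables.

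The AppNLGF table also lists single transcripts beside the gene entries. Gene entries made up 88.5 to 91.4% of the fixed TPM total per library and both kinds together the whole of it, from which it was inferred that the listed transcripts are not counted again in the gene values; the sources used here do not state this. In the APP/TAU table, which lists no transcripts, gene entries made up 84.9 to 90.8%. Of 28 annotated transcripts of the 7 genes, 14 had an entry of their own and 9 of these had a mean TPM of at least 1. Egr3-202, a retained-intron transcript, was at 21.6 ± 6.26 TPM with CDDO-2P-Im, 21.0 ± 3.92 TPM with vehicle and 20.5 ± 1.01 TPM in wild type (SD, n = 13, 11 and 4), close in level to the Egr3 gene entry. If the inference holds, the AppNLGF values and folds of Egr3, and of the other genes with listed transcripts, cover only part of their transcripts. The APP/TAU gene entries also fell short of the fixed total, and what makes up the rest is not listed. The APP/TAU values and folds may therefore also cover only part of the transcripts of these genes. Nr4a1-203, a protein-coding transcript, averaged 2.71 ± 1.69 TPM with CDDO-2P-Im, 1.32 ± 1.41 TPM with vehicle and 4.00 ± 3.01 TPM in wild type, and the retained-intron transcript Nr4a1-204 at 3.25 ± 1.25, 1.84 ± 1.49 and 5.20 ± 5.07 TPM. Nr4a3-202, a transcript annotated without a reading frame, was at 1.32 ± 1.36, 0.323 ± 0.549 and 2.84 ± 0.976 TPM and listed at 0 in 4 of 13 CDDO-2P-Im, 6 of 11 vehicle and 0 of 4 wild type libraries. Apart from Egr3-202, the SD of these transcripts came near or above their means in some groups, and no test was made of single transcripts.

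The other genes of the pathway were taken from 4 lists. Upstream of the 7 genes, none of 28 activators (CREB, SRF and their cofactors and kinases) was called by limma in any comparison of either table. For CDDO-2P-Im against vehicle 25 of 28 were below 0 in AppNLGF mice, with a median fold of -0.06 beside -0.04 over all genes (1036 genes at an unadjusted p under 0.05). Crebbp, the CREB-binding coactivator, had a fold of -0.13 ± 0.06 (30.1 ± 3.57 TPM with CDDO-2P-Im and 32.9 ± 2.51 TPM with vehicle; limma adjusted p = 0.778). All 28 were below 0 in APP/TAU mice, with a median of -0.28 beside -0.19 over all genes, and 21 were below 0 after scaling. Srf was at 12.2 ± 1.02 TPM with CDDO-2P-Im and 16.6 ± 1.93 TPM with vehicle (n = 5 each; fold -0.41 ± 0.10, limma adjusted p = 0.167, lower in 5 of 5 libraries), and its scaled fold was -0.20 ± 0.04 (limma adjusted p = 0.27).

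Of 9 partners and corepressors of the Egr and Nr4a proteins, limma called 0 in each comparison of deposited TPM. Nab2, a corepressor that Egr1 itself induces, was at 16.5 ± 3.33 TPM with CDDO-2P-Im and 12.7 ± 2.28 TPM with vehicle in the AppNLGF table (fold 0.34 ± 0.10, limma adjusted p = 0.488), and with median-ratio scaling it was called (fold 0.38 ± 0.08, limma adjusted p = 0.0222; 10 of 13 libraries above every vehicle library). Its fold for CDDO-2P-Im against vehicle in APP/TAU mice was -0.38 ± 0.11 (limma adjusted p = 0.167) in deposited TPM and -0.17 ± 0.07 (limma adjusted p = 0.528) after scaling.

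Of 14 measured immediate early transcription factors outside the 2 families, 2 were called higher for CDDO-2P-Im against vehicle in the AppNLGF table, where 0.0477% of all genes were called higher, and 13 were above 0, with a median of 0.29. They were the AP-1 subunits Junb, with all 13 CDDO-2P-Im libraries above every vehicle library, and Fos. For vehicle against wild type 4 of the 14, Fos, Junb, Npas4 and Ier2, were called lower (0.0596% of all genes), with a median of -0.35. Of 24 effectors, which carry activity to synapses, kinases and the clock, 1 was called higher for CDDO-2P-Im against vehicle, Arc, which acts in glutamate receptor uptake, and 3 were called lower for vehicle against wild type, Arc, the phosphatase Dusp1 and the clock gene Per1. With median-ratio scaling Ier2 and Klf2 joined Fos and Junb (4 of 14), and Dusp1 and Per1 joined Arc (3 of 24), for CDDO-2P-Im against vehicle, where 0.244% of all genes were called higher. For vehicle against wild type the scaled calls were 5 of 14, with Btg2, and 6 of 24, with Ccn1, Csrnp1 and Sik1, where 0.137% of all genes were called lower. None of either list was called in APP/TAU mice (4719 genes at an unadjusted p under 0.05), while all 14 and all 24 were below 0 for CDDO-2P-Im against vehicle, with medians of -0.38 and -0.36 beside -0.19 over all genes. Arc was at 49.1 ± 3.40 TPM with CDDO-2P-Im and 80.1 ± 13.9 TPM with vehicle there (fold -0.68 ± 0.14, limma adjusted p = 0.167, lower in 5 of 5 libraries), and Fosb at 3.98 ± 0.527 and 6.85 ± 1.26 TPM (fold -0.65 ± 0.15, limma adjusted p = 0.167, lower in 5 of 5 libraries). After scaling 12 of 14 and 22 of 24 were below 0. These lists, like the 7 genes, were drawn up with earlier results in view.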

How the data were processed

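Total RNA from mouse brain was extracted with Sepasol and sequenced from MGIEasy RNA Directional libraries, per the labels' protocols. Salmon and the build GRCm38 (mm10) are named in the submitters' processing notes, with a version and annotation not given in the sources used here. TPM, abundances per transcript length, were deposited as a table for each model, unpooled, with 55804 gene entries each and, in the AppNLGF table, 64708 transcript entries that were kept out of the gene comparisons. TPM keep no depth, so no counting error can be given, and the number of libraries sets the precision. Symbols were matched for 51327 gene entries.

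Libraries were grouped by title. The 16776 genes of the AppNLGF and 17592 of the APP/TAU table that averaged 1 TPM or more were fitted as log2(TPM + 1) with limma 3.58.1 in R 4.3.3 (1 mean per group, all 3 groups of a table, variance trend, two-sided, Benjamini-Hochberg over all genes tested; called below 0.05). Folds on this scale understate changes of low genes. Errors are SE of the fit or SD between libraries. The fit was tested on simulated data. Permutations and promoter searches used Python 3.11.15, numpy 2.4.6, pandas 2.3.3 and scipy 1.17.1, and the figures matplotlib 3.10.9; files were read in R with data.table (version 1.17.8). Promoters are RefSeq windows of GRCm38.p6, without the Egr1 and Egr3 promoters.

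The genes, lists and tests were chosen with earlier results of these data known. All 7 genes are named; of each other list, the 2 genes with the smallest p in a comparison, and of each gene the 3 others with the highest r (among genes with a symbol that is not of clone type), could be named; further genes of the lists are named where a count of calls is small. Alternatives were median-ratio scaling, quantile normalization, 0.1 as the pseudocount, a filter at a mean of 5 TPM or no filter, robust variance moderation, the replicate number as a block, a term for numbers 1 to 5, only the groups compared and leaving out each library. Splits by replicate number and by Xist (above or under 10 TPM) were added after seeing the data.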

Additional observations from a re-analysis of the deposited data

Results flagged for a closer look

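Nr4a1 lay on opposite sides of its comparison group in the 2 tables, for CDDO-2P-Im against vehicle and for vehicle against wild type. In deposited TPM every AppNLGF CDDO-2P-Im library lay above the mean of the AppNLGF vehicle libraries, with a group mean of 44.7 TPM against 21.1 TPM, and every APP/TAU CDDO-2P-Im library lay below the mean of the APP/TAU vehicle libraries, with 35.7 TPM against 55.3 TPM. Every AppNLGF vehicle library lay below the mean of its wild type libraries and every APP/TAU vehicle library above the mean of its own. The APP/TAU fold for vehicle against wild type was 0.37 ± 0.13 (limma adjusted p = 0.142), and the ranges overlapped. The median over all genes was also above 0 in that comparison. After median-ratio scaling the Nr4a1 fold was 0.16 ± 0.11 (limma adjusted p = 0.534). The difference between the tables was not tested. Of 28 combinations of a gene and a group of 4 to 10 libraries, 0 had a library far enough from the others to be called an outlier, where chance gives about 1 in 20.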

How the results depend on the processing

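For CDDO-2P-Im against vehicle in the AppNLGF table, the count of called genes among the 7 was 1 as reported, where 0.0536% of all genes were called. The count was 2 with median-ratio scaling (0.286% of all genes), quantile normalization or a term for library numbers 1 to 5. It was 0 within numbers 1 to 5, within numbers 6 and above and among libraries with Xist, in each case with both scalings, and 1 (2 scaled) among libraries without Xist; fewer libraries enter these fits. Leaving out 1 library gave 1 to 3, with 2 in deposited TPM without CDDO-2P-Im library 5 or 7 and 3 after scaling without 5 or 6. For vehicle against wild type, 2 as reported, it was 1 with a minimum mean TPM of 5, which leaves out Egr2, 1 without a filter, 1 among libraries without Xist, 1 with the replicate block and scaling, 4 with the number term and 1 to 3 leaving out 1 library. The count of 1 in deposited TPM followed the loss of vehicle library 2, 3 or 4 or of any wild type library, and that of 3 the loss of CDDO-2P-Im library 5; after scaling, 3 as given above, it was 2 without wild type library 2 and 1 without wild type library 3. For CDDO-2P-Im against wild type the count was 0 as reported, where 0.262% of all genes were called. It was 4 with the replicate block (19.2% of all genes) and 0 with the block and scaling. With the number term it was 4 (30.7%), and within numbers 1 to 5 it was 1 (32.2%), or 0 scaled. Shares of all genes called under the remaining settings are not given here, so nothing is read from these counts. Where no cause is given, the cause was not tested.

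The labels do not say whether replicate numbers pair the libraries. Same-numbered libraries had weak correlations, -0.0814 to 0.118, in their deviations from group means. For CDDO-2P-Im with wild type libraries, 3 of 4 in the AppNLGF and 3 of 5 in the APP/TAU table correlated best with their own number. For CDDO-2P-Im with vehicle this held for 2 of 11 and 1 of 5, and for vehicle with wild type for 0 of 4 and 1 of 5. The block left the counts of the other 2 AppNLGF comparisons at 1 and 2, and moved that of CDDO-2P-Im against wild type as given above. In the APP/TAU table limma called 0 of the 7 in each comparison under every alternative run. The folds that changed sign were small ones. Nr4a2 for vehicle against wild type in the APP/TAU table, 0.18 as reported, was -0.021 with median-ratio scaling, -0.0022 with quantile normalization and -0.021 with the block and scaling. Leaving out 1 library in deposited TPM changed no sign in that comparison: Nr4a2 ran from 0.11 to 0.27, Egr1 (0.25 as reported) from 0.17 to 0.35 and Egr3 (0.22) from 0.025 to 0.39. Leaving out 1 library after scaling, they ran from -0.085 to 0.045, -0.019 to 0.10 and -0.11 to 0.16. Nr4a3 for CDDO-2P-Im against wild type (-0.05) ran from -0.23 to 0.034 in deposited TPM and -0.21 to 0.049 after scaling. Depth is unknown and sets no limit that could be computed.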
